A study of Ceratina calcarata with 12 samples.

Results

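Of the 20693 gene models counted in heads of the small carpenter bee Ceratina calcarata, 67 (0.324%) were far lower in every no care library than in every care library. A gene model was a member when its lowest level in the 3 care libraries was at least 0.5 CPM (its count divided by the library total and multiplied by 1000000) and at least 3 times its highest level in the 3 no care libraries. Members were thus selected on the measured CPM of these same 6 libraries, so no care libraries lie below care libraries for every member by construction. All expression values of members below are given as descriptions without a test.

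C. calcarata is a subsocial bee whose mother stocks each brood cell with pollen and then stays with the developing young. In the no care group the mother was taken away once the nest had been provisioned, and in the care group the mother stayed in the nest until the offspring were adult. Both groups came from nests in dead sumac stems collected in the field, kept their pollen and eggs, were reared in the laboratory and were sampled as newly eclosed adult females. Each group had 3 RNA libraries, each a pool of 3 heads with every bee from a different nest, and 3 bisulfite libraries, each a pool of 9 heads. A whole head holds brain, eyes, glands, fat body, muscle and cuticle, and no label gives the cells that a member is expressed in. In such a mixture, fewer cells of a type and less RNA per cell cannot be told apart.

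The insect head is a place of chemical communication and chemical defence as well as of neural processing. Heme monooxygenases, a class that includes the cytochromes P450, insert oxygen into hormones, pheromones, fatty acids and plant toxins. Fatty acid desaturation, reduction and acyl transfer in glands, fat body and epidermis supply the hydrocarbons, alcohols, esters and waxes that coat the cuticle and carry odour signals. Cell surface receptors coupled to G proteins, and ion channels of the ionotropic glutamate receptor family, carry hormonal, neural and odour signals into cells.

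The members were not nearly confined to cared-for heads as a group. The mean level in no care was 13.1% of the mean level in care for the median member, and it reached 25.6% for the member closest to equality. The no care level was under 10% of the care level in 26 members and under 5% in 10 members. In absolute terms, 26 members still averaged at least 10 CPM in no care and 23 averaged under 0.5 CPM there. The ratio of the lowest care level to the highest no care level was from 3 to 5 in 40 members, from 5 to 10 in 15 members and 10 or more in 12 members, with a median of 4.48. A name of near confinement to care therefore fits a minority of the 67. The opposite pattern, with the care and no care libraries exchanged in the rule, was met by 23 gene models, but by 83 when care replicate 2 was left out and by 39 when no care replicate 3 was left out. Without care replicate 2 the rule itself took 91 gene models. Leaving out a library can only loosen either rule.

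**Figure D1:**
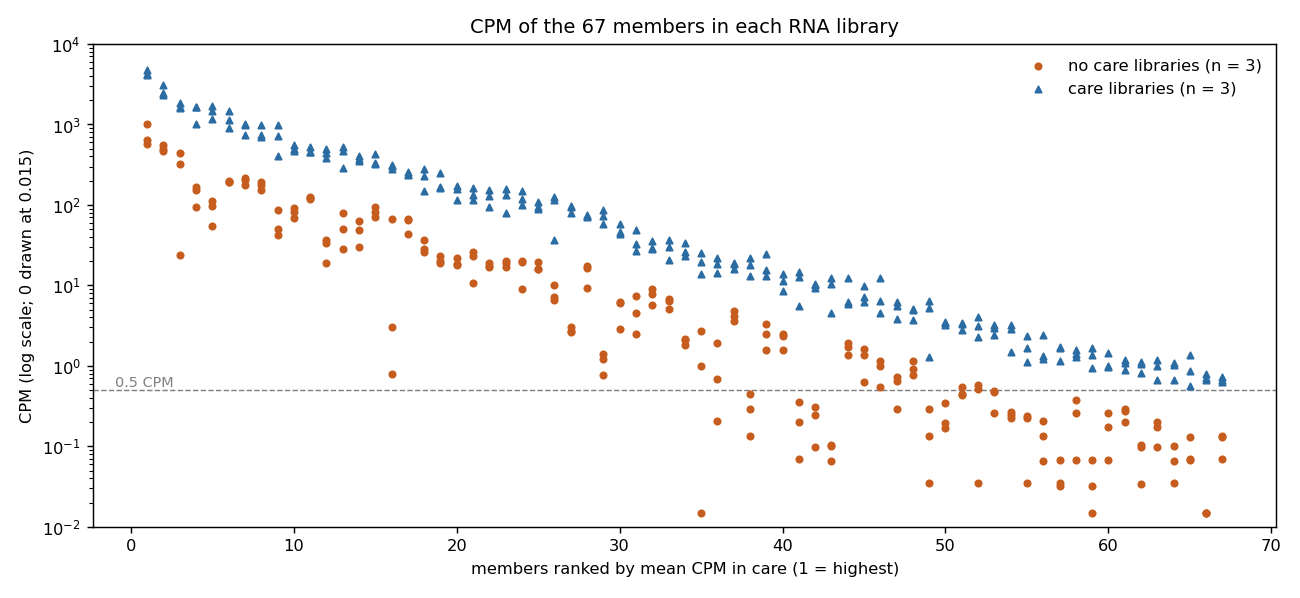
CPM of each of the 67 members (log scale, counts of 0 drawn at 0.015) in the 3 no care libraries (circles) and the 3 care libraries (triangles), ranked by the mean in care. The dashed line marks 0.5 CPM, the lowest level allowed in a care library. Members extend from a mean of 4351 CPM to a mean of 0.678 CPM in care, and the gap between the groups is one that the rule requires. In Ccalc.v2_015268, the third from the left, 1 no care library lies at 23.7 CPM, far below the others.

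Levels in care covered more than 3 orders of magnitude. The mean in care was 1000 CPM or more in 6 members, from 100 to 1000 CPM in 18, from 10 to 100 CPM in 17, from 1 to 10 CPM in 20 and under 1 CPM in 6. The median of these means was 2.45 CPM in no care and 27.6 CPM in care, and the 9903 gene models that averaged at least 0.5 CPM in care had a median of 32.4 CPM in care. CPM is not divided by transcript length, so a rank by CPM orders members by the reads they took and not by their number of transcripts.

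Together the members took 0.246%, 0.368% and 0.314% of all counts in no care libraries and 1.95%, 2.01% and 2.09% in care libraries. The means were 0.310% ± 0.0612 in no care and 2.01% ± 0.0702 in care (SD, n = 3 each). The 3 members with the most reads, Ccalc.v2_011490, Ccalc.v2_013190 and Ccalc.v2_015268, made up 45.9% to 53.0% of these counts in no care and 39.8% to 47.2% in care. Without those 3 members the rest took 0.132% to 0.173% of the counts in no care and 1.06% to 1.26% in care.

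**Figure D2:**
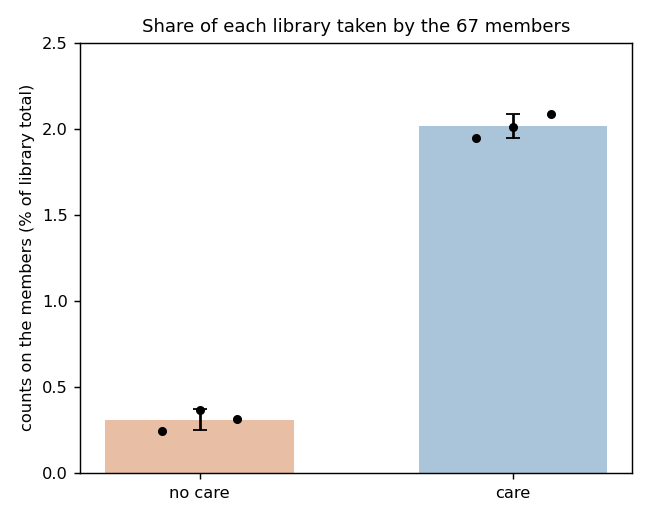
Share of all counts in a library that fell on the 67 members, with bars for the mean of each group, error bars for 1 SD and a point for each library (n = 3 per group). The no care libraries lie at 0.246% to 0.368% and the care libraries at 1.95% to 2.09%, a separation that the rule for choosing members builds in.

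The member with the most reads was Ccalc.v2_011490, annotated as a heme- and iron-binding monooxygenase, which ranked 11 among all gene models by its mean in care. It had 568, 1004 and 645 CPM in no care and 4189, 4725 and 4139 CPM in care. Even the lowest no care library carried 16405 of its reads, so this enzyme was well detected in heads of both groups, and its log2 fold change of no care over care was -2.52 (SE 0.23). Ccalc.v2_013190 carries the annotation of a glucosylceramidase, an enzyme that releases glucose from a membrane sphingolipid. Its levels were 548, 500 and 475 CPM in no care and 2445, 3103 and 2339 CPM in care, with a log2 fold change of -2.34 (SE 0.15), and the no care libraries were closely alike.

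Ccalc.v2_015268, annotated for iron binding and for an oxidoreductase acting on paired donors, behaved differently among no care libraries. It had 23.7, 446 and 321 CPM in no care and 1596, 1655 and 1836 CPM in care. The care libraries lay within a factor of 1.15 of each other, whereas the highest no care library was 18.8 times the lowest. Ccalc.v2_019211, which has no annotation here, showed a still wider spread at 0.796, 66.2 and 3.02 CPM in no care against 311, 308 and 283 CPM in care. Its log2 fold change was -3.66 (SE 1.24) with every library and -7.23 without no care replicate 2, the library that holds nearly all of its no care counts. For these members a mean over the no care group describes no single library.

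Among the other members with the most reads, Ccalc.v2_012036 is annotated to fatty acid biosynthesis. It had 194, 191 and 200 CPM in no care and 1143, 895 and 1476 CPM in care, so its spread was wider among care libraries than among no care libraries. Ccalc.v2_003626 is annotated as a hydrolase of ester bonds and to tyrosine metabolism, and it had 69.4, 82.6 and 92.5 CPM in no care and 553, 464 and 491 CPM in care. The 5 remaining members of the first 10 by CPM have no annotation here. Of these, Ccalc.v2_011749 was the furthest apart, with 55.4, 111 and 97.5 CPM in no care and 1168, 1454 and 1684 CPM in care. Ccalc.v2_006082 averaged 139 ± 38.7 CPM in no care and 1439 ± 358 CPM in care, and Ccalc.v2_019045 averaged 59.4 ± 22.9 CPM in no care and 701 ± 293 CPM in care (SD, n = 3 each). Ccalc.v2_011567 averaged 199.7 ± 19.6 CPM in no care and 912 ± 152 CPM in care, and Ccalc.v2_008002 averaged 175 ± 20.7 CPM in no care and 804 ± 154 CPM in care (SD, n = 3 each), so they kept 21.9% and 21.7% of their care level.

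The members that best fit a description as nearly confined to care were mostly of low or middle level. Ccalc.v2_010747, annotated to signalling through G-protein coupled receptors, had 0.762, 1.42 and 1.20 CPM in no care and 58.1, 72.4 and 86.9 CPM in care. Its lowest care library was 40.9 times its highest no care library, and its log2 fold change was -5.96 (SE 0.25), the furthest from 0 of all members fitted. No care libraries held 22, 42 and 37 reads of it, so the gene was detected in each of them. Ccalc.v2_012034, annotated as an ionotropic glutamate receptor, a channel that opens when it binds its ligand, had 0.450, 0.135 and 0.292 CPM in no care and 13.0, 22.1 and 18.2 CPM in care. Its lowest care library was 28.8 times its highest no care library, with a log2 fold change of -5.88 (SE 0.38), and its no care levels rested on 13, 4 and 9 reads.

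Ccalc.v2_006527, without annotation here, had 2.63, 3.01 and 2.69 CPM in no care and 96.4, 94.7 and 80.4 CPM in care. It combined a ratio of 26.7 between the lowest care and the highest no care library with little spread inside either group, and its log2 fold change was -4.99 (SE 0.13). Ccalc.v2_013071 had 0.242, 0.305 and 0.0974 CPM in no care and 10.3, 9.98 and 9.25 CPM in care, a ratio of 30.4. Ccalc.v2_017903 had 0.104, 0.102 and 0.0649 CPM in no care and 10.5, 12.4 and 4.58 CPM in care, a ratio of 44.1. Its mean in no care was 0.984% of its mean in care, the lowest share above 0, and rested on 3, 3 and 2 reads.

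Only Ccalc.v2_019961 had no read in any of the 3 no care libraries, beside 64 reads in the care libraries, where it stood at 0.673, 0.710 and 0.784 CPM. Set against a floor of 3 counts over the no care group, or 0.0336 CPM, it was at least 21.5-fold lower in no care. Ccalc.v2_005701 had 0, 2 and 1 reads in no care and 117 reads in all in care, a ratio of care over no care of 39.4 with a 95% interval from 13.1 to 194 that covers counting error only. Among all members, 3 had a count of 0 in any no care library, the other being Ccalc.v2_017756 with 0, 2.67 and 1.01 CPM in no care and 19.5, 13.9 and 25.1 CPM in care. A count of 0 thus marked few members at this depth.

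Annotation was at hand for 21 of the 67 members and for none of the remaining 46. The annotations come from any of the study's Gene Ontology lists. The complete lists used below hold only gene models that the study had called on these same libraries. An annotation thus names a function and gives no independent evidence of direction. The terms with at least a pair of members in a complete list were monooxygenase activity with 4, fatty acid biosynthetic process with 2, fatty-acyl-CoA reductase with 2 and nucleosome with 2.

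The 4 monooxygenase members differed widely in CPM. Beside Ccalc.v2_011490, Ccalc.v2_004398, which also carries heme and iron binding terms, had 28.0, 80.1 and 49.7 CPM in no care and 530, 291 and 461 CPM in care. Ccalc.v2_007355 had 16.8, 20.2 and 19.0 CPM in no care and 134, 79.1 and 159 CPM in care, and Ccalc.v2_015269 had 5.75, 8.90 and 7.82 CPM in no care and 28.6, 29.1 and 35.9 CPM in care. Their log2 fold changes were -2.98, -2.68 and -2.02. In Ccalc.v2_004398 and Ccalc.v2_007355 care replicate 2 was the lowest care library, while Ccalc.v2_011490 was highest in that library, so the members with this function did not share 1 order of libraries.

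Over all 10763 gene models tested with edgeR's quasi-likelihood test (Benjamini-Hochberg adjusted p under 0.01), 355 (3.30%) were lower in no care and 400 (3.72%) were higher. The number lower in no care was 110, 169 and 246 without care replicates 3, 1 and 2. It was 158, 170 and 471 when no care replicates 2, 1 and 3 were left out in turn. The number higher in no care was 62, 106 and 346 without care replicates 3, 1 and 2. It was 169, 180 and 638 when no care replicates 2, 1 and 3 were left out in turn. Without TMM, on library size only, 420 were lower and 362 higher in no care, so the balance between the directions turned with the scaling. The monooxygenase list, drawn up on these same libraries, also held 15 gene models that are not members, all of them tested. Of these, 8 fell in no care and 5 rose, and their median log2 fold change was -0.87, within a range from -1.57 to 2.80, beside a median of 0.00 over all gene models tested. The enzymes with this annotation therefore included calls in both directions.

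The fatty acid members were Ccalc.v2_012036, given above, and Ccalc.v2_012035, which had 19.1, 23.0 and 20.2 CPM in no care and 168, 161 and 249 CPM in care. Both had their highest level in care replicate 3 and their lowest in care replicate 2, and neither varied much among no care libraries. Their list, likewise drawn up on these libraries, held 12 other gene models, of which 4 fell in no care, 1 rose and 7 did not pass the test, with a median log2 fold change of -0.70 and a range from -1.17 to 2.69. Fatty-acyl-CoA reductases turn activated fatty acids into fatty alcohols, which serve as wax and pheromone components. Their members Ccalc.v2_009836 and Ccalc.v2_008427 had 10.8, 25.9 and 23.0 CPM and 2.49, 7.41 and 4.58 CPM in no care, against 134, 115 and 160 CPM and 27.0, 33.0 and 48.8 CPM in care. Both had their lowest no care level in replicate 1. Of the 6 other gene models on that list, of the same origin, 3 fell in no care and 2 rose, with a median log2 fold change of -1.27 and a range from -1.93 to 5.06.

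The nucleosome term covers histones and proteins that package DNA. Ccalc.v2_011365 had 0.346, 0.169 and 0.195 CPM in no care and 3.53, 3.36 and 3.26 CPM in care, and Ccalc.v2_012765 had 0.277, 0.203 and 0.292 CPM in no care and 1.08, 0.897 and 1.19 CPM in care. Both were rare in every library, and the no care values of the pair overlapped each other. Of the 7 other gene models on this list, again of that origin, 5 passed the filter on low counts, with 1 that fell in no care and 1 that rose, a median log2 fold change of -0.69 and a range from -2.15 to 0.52.

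Several members carried an annotation from a list with no other member, or from a list held only in part here. Ccalc.v2_009945, the other member annotated to G-protein coupled receptor signalling, had 1.59, 2.37 and 2.499 CPM in no care and 13.7, 8.52 and 11.3 CPM in care, a smaller separation than that of Ccalc.v2_010747. Ccalc.v2_003625, an acyl transferase by its annotation, had 19.0, 36.6 and 33.9 CPM in no care and 499.8, 381 and 446 CPM in care. Ccalc.v2_019754, annotated to lipid breakdown, had 0.0692, 0.203 and 0.357 CPM in no care and 14.7, 12.7 and 5.49 CPM in care. The acyl transferase varied by a factor of 1.31 across care libraries, whereas the lipid breakdown gene was much lower in care replicate 3 than in the other care libraries.

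Ccalc.v2_005074, an oxidoreductase of carbohydrate metabolism by its annotation, had 120.3, 127 and 117 CPM in no care and 452, 452 and 522 CPM in care, and its no care level of 25.6% of care was the highest of all members. Ccalc.v2_002024 is annotated to chitin binding, chitin being the sugar polymer of the cuticle, and it averaged 0.902 ± 0.312 CPM in no care and 7.72 ± 4.08 CPM in care (SD, n = 3 each). Ccalc.v2_007584, a metallopeptidase by its annotation, averaged 0.481 ± 0.0618 CPM in no care and 3.17 ± 0.362 CPM in care (SD, n = 3 each). Both of the last were rarely counted in no care.

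**Figure D3:**
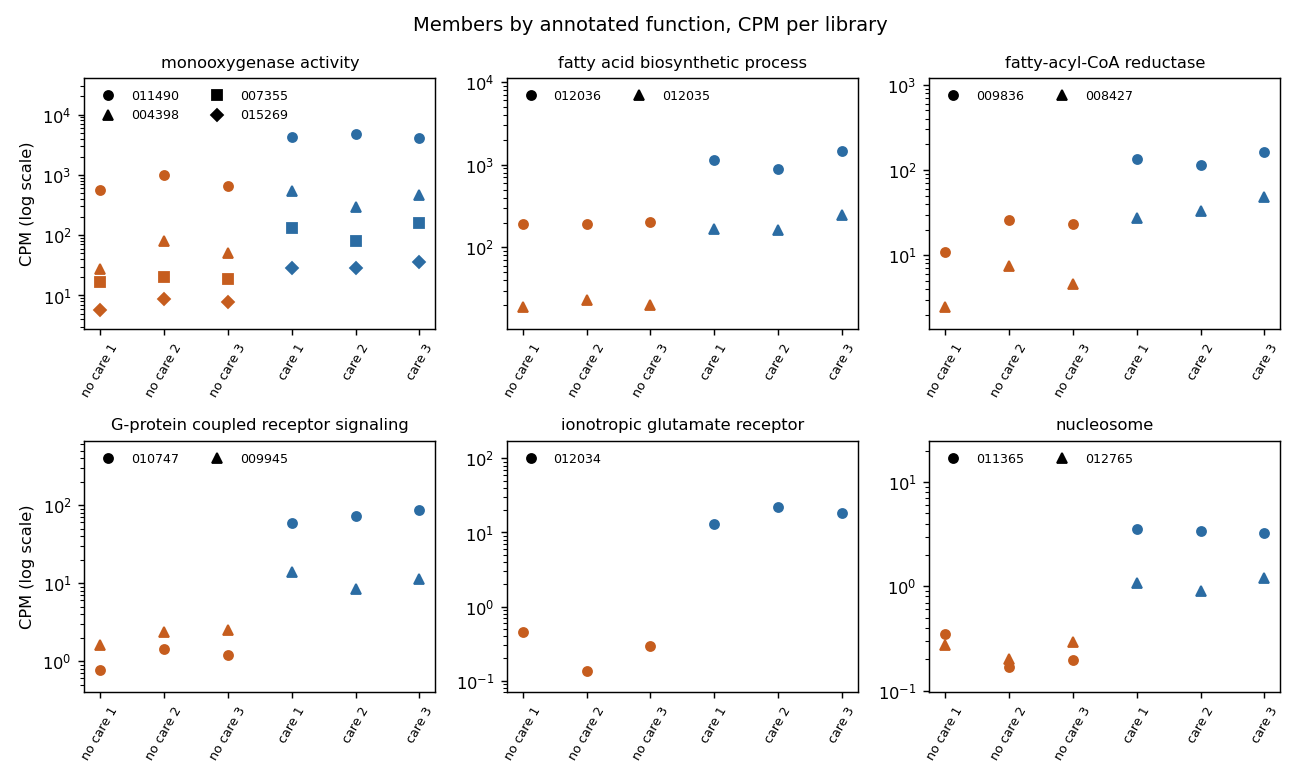
CPM (log scale) of annotated members in each library, 1 panel per function, with no care libraries in orange at left and care libraries in blue at right and 1 symbol per gene model. The ionotropic glutamate receptor Ccalc.v2_012034 stands at 0.135 to 0.450 CPM in no care and 13.0 to 22.1 CPM in care, and the monooxygenase Ccalc.v2_011490 at 568 to 1004 CPM in no care and 4139 to 4725 CPM in care.

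A set of members had neighbouring gene model numbers. Positions were at hand for 823 gene models on 3 scaffolds, where all 820 pairs of consecutive numbers on 1 scaffold were in order of their start. None of the members described next was among them (0 placed), so whether they adjoin in the genome was not checked. There were 6 runs of consecutive members with 14 members in all, and of 132 gene models next to a member by number 14 (10.6%) were members, beside 0.324% of all gene models. Of 67 neighbours that were not members and were tested, 6 (8.96%) fell in no care, beside 3.30% of all gene models tested, and 3 (4.48%) rose, beside 3.72%, differences that were not tested. Their median log2 fold change was -0.08, beside 0.00 over all gene models tested. Whether neighbouring gene models share sequence or reads was not tested.

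The longest run held 4 gene models, Ccalc.v2_012033 to Ccalc.v2_012036, and joined the glutamate receptor to both fatty acid biosynthesis members. Ccalc.v2_012033, which has no annotation here, had 0.0346, 0.0677 and 0.0325 CPM in no care and 1.14, 1.68 and 1.72 CPM in care. Along the run the ratio of the lowest care to the highest no care level was 16.9, 28.8, 6.98 and 4.47, so the pair with fewer reads was the more sharply separated. Reads of Ccalc.v2_012034 over those of Ccalc.v2_012033 stood at 13, 2 and 9 in no care, where the denominators are 1 or 2 reads, and at 11.4, 13.1 and 10.5 in care.

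Ccalc.v2_012582 and Ccalc.v2_012583, both without annotation, had nearly the same profile. Ccalc.v2_012582 had 19.0, 17.0 and 17.2 CPM in no care and 95.3, 128 and 155 CPM in care, and Ccalc.v2_012583 had 21.8, 18.5 and 17.8 CPM in no care and 114, 158 and 173 CPM in care. The ratio of Ccalc.v2_012583 to Ccalc.v2_012582 was 1.15, 1.09 and 1.03 in no care and 1.19, 1.23 and 1.12 in care, nearly constant over all 6 libraries. In the pair of the ester hydrolase Ccalc.v2_003626 and the acyl transferase Ccalc.v2_003625, by contrast, the ratio was 3.65, 2.25 and 2.73 in no care and 1.11, 1.22 and 1.102 in care, so the acyl transferase was the more reduced of the pair in every no care library.

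The iron-binding oxidoreductase Ccalc.v2_015268 is next by number to the monooxygenase Ccalc.v2_015269. Their ratio was 4.12, 50.1 and 41.0 in no care and 55.9, 56.9 and 51.1 in care. No care replicate 1 stood apart in Ccalc.v2_015268 and hardly in its neighbour. The monooxygenase Ccalc.v2_011490 follows by number Ccalc.v2_011489, which had 0.623, 1.62 and 1.36 CPM in no care and 9.85, 7.18 and 6.18 CPM in care. Both had their lowest level in no care replicate 1, although Ccalc.v2_011490 took at least 425 times as many reads as its neighbour in every library. The last run, Ccalc.v2_007377 and Ccalc.v2_007378, was rare, with means of 0.136 ± 0.0714 and 0.0670 ± 0.0335 CPM in no care and 1.65 ± 0.660 and 0.930 ± 0.225 CPM in care (SD, n = 3 each).

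**Figure D4:**
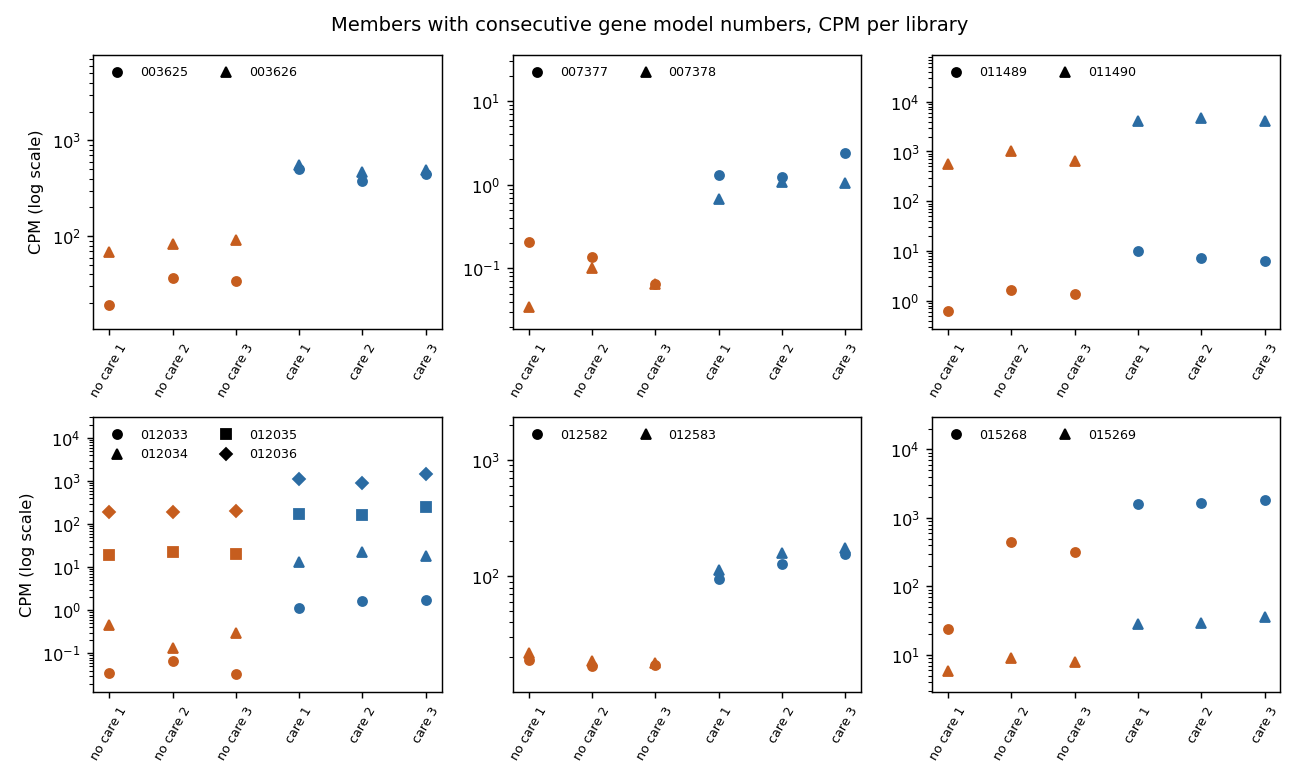
CPM (log scale) in each library of the 14 members that form 6 runs of consecutive gene model numbers, 1 panel per run, with no care libraries in orange at left and care libraries in blue at right. Ccalc.v2_012582 and Ccalc.v2_012583 nearly coincide in all 6 libraries, and Ccalc.v2_015268 lies at 23.7 CPM in no care replicate 1 and at 446 and 321 CPM in the other no care libraries.

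The median spread of members among libraries of the same group was wider than that of gene models in general, a difference that was not tested. In the 44 members that averaged at least 0.5 CPM in no care, the highest no care level was 1.56 times the lowest at the median, beside 1.25 over all 9865 gene models with such a mean. Among care libraries the highest level of a member was 1.495 times the lowest at the median, beside 1.17 over the 9903 gene models that averaged at least 0.5 CPM in care. The widest spread in care was that of Ccalc.v2_020671, with 0.0346, 0.135 and 0.292 CPM in no care and 5.25, 6.47 and 1.29 CPM in care, followed by Ccalc.v2_000500 with 7.13, 6.50 and 10.1 CPM in no care and 126, 37.0 and 114 CPM in care. A different care library was the low one in each.

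The libraries with the lowest and highest level of each member were counted, without a test. Of the 44 members, 31 had their lowest no care level in replicate 1, beside 24.5% of all gene models with such a mean. In 23 the highest was replicate 2, beside 27.8%. In care, 32 of 67 members were highest in replicate 3, beside 36.5% of the gene models that averaged at least 0.5 CPM there. In 29 the lowest was replicate 2, beside 49.8%, so it was the low library no more often in members than in general. Among the 31 is Ccalc.v2_015268, where no care replicate 1 lay far below the others. Ccalc.v2_019211 is also among them, but its no care replicates 1 and 3 were both low, at 0.796 and 3.02 CPM. There replicate 2 stood apart at 66.2 CPM.

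The filter on low counts, more than 0.18 CPM in more than 3 libraries, can be met by a member only through at least 1 no care library. It passed 59 members and left out 8, including Ccalc.v2_017903, Ccalc.v2_019961, Ccalc.v2_005701 and Ccalc.v2_012033. Of the 59 members fitted, 55 were among the calls lower in no care, where the background is 3.30% of gene models, and since the rule used this contrast nothing is read from that count. The 4 not called were Ccalc.v2_015268, Ccalc.v2_019211, Ccalc.v2_017756 and Ccalc.v2_020059. In each of these the highest no care library was many times the lowest, or the lowest stood at 0. Log2 fold changes of the 59 had a median of -2.81 and a range from -5.96 to -1.93. With the filter in at least 3 libraries all 67 members were fitted and 63 were called, beside a background of 3.36% of 11068 gene models.

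At the limit of 3 times, the members just inside were Ccalc.v2_010093 with a ratio of 3.06 and Ccalc.v2_012765 with 3.07, and the gene models just outside were Ccalc.v2_010696 with 2.95 and Ccalc.v2_012029 with 2.87. At the limit of 0.5 CPM, the members just inside were Ccalc.v2_004116 with a lowest care level of 0.561 CPM and Ccalc.v2_012523 with 0.639 CPM, and those just outside were Ccalc.v2_010476 with 0.449 CPM and Ccalc.v2_017415 with 0.437 CPM. Values ran on across both limits, and Ccalc.v2_012029 lies 4 numbers before the longest run of members.

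Depth was similar between groups, with 28882748 to 30811286 counts per library in no care and 26752341 to 31894020 in care. Markers of tissues in the head, taken by their Drosophila melanogaster orthologs, were present in all libraries. The sum of 4 photoreceptor markers, which are visual pigments and the arrestin that shuts them off, was 1676 to 2087 CPM in no care and 3453 to 4699.6 CPM in care. Most of the care sum was Rh6, at 545 to 841 CPM in no care and 1843 to 2923 CPM in care. Rh2 overlapped between the groups, at 135 to 166 CPM in no care and 154 to 159 CPM in care. Of these markers Rh6 (log2 fold change -1.74) and Arr1 (-1.54) fell in no care, while Rh3 (-0.44) and Rh2 (-0.06) did not pass the test. The sum of 5 neuron markers was 5131 to 6084 CPM in no care and 4505 to 4737 CPM in care, with none called. Most of that sum was cpx, at 3770 to 4414 CPM in no care and 2751 to 2823 CPM in care. The next largest, nAChRalpha4, went the other way, at 1158 to 1467 CPM in no care and 1544 to 1792 CPM in care. Vmat and prt were higher in no care, and Shab overlapped between the groups. The sum of 2 muscle markers was 5004 to 6703 CPM in no care and 6559 to 7329 CPM in care. Germ line is not part of a head, and the sum of its 3 markers was 164 to 180 CPM in no care and 170 to 180 CPM in care. Most of it was bgcn, at 123 to 132 CPM in no care and 124 to 131 CPM in care. Next was bol, at 32.1 to 49.3 CPM in no care and 44.1 to 49.2 CPM in care. Only dnd was rare, at 0.242 to 0.325 CPM in no care and 0.251 to 0.336 CPM in care. Whether bgcn and bol, counted in every head library, mark germ line in this bee was not tested, so their sum is no measure of germ line tissue. The part of Rh6 and Arr1, or of eye tissue, in the members' levels was not tested.

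DNA methylation was the only measure here that did not enter the choice of members. In bees methylation lies mostly within gene bodies. Only 1 member, Ccalc.v2_000500, could be placed on a scaffold, where its model spans 6233 bp and holds 1 listed CpG. At that CpG 0 of 31, 3 of 34 and 0 of 31 reads were methylated in no care and 1 of 26, 0 of 45 and 0 of 25 in care. The pooled difference of 2.08 percentage points rested on those few reads and was -1.04 without no care replicate 2. For its own comparison the study kept only CpGs called methylated in 1 sample or more. If the listed CpGs are that set, which was not checked, these same reads may have selected the site. Other CpGs of the gene body are not described here. Of the 822 other placed gene models 27.3% held no listed CpG, and the median was 4. Methylation of the other 66 members was not analysed here.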

How the data were processed

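Expression was measured in 3 no care and 3 care RNA libraries, grouped by their labels, and methylation in 3 bisulfite libraries per group. The authors checked reads with FastQC 0.11.4, trimmed them with Trimmomatic 0.32, aligned RNA reads with TopHat and deposited raw featureCounts counts per gene model, without normalization. The strand setting and the treatment of reads with several hits are not given in the sources used here. Bisulfite reads were aligned with Bismark 0.14.5. For each listed CpG the authors deposited its coverage as a count of reads and its methylated reads as a percent of that coverage. Listed CpGs were few, with a median of 4 in the 822 placed gene models that are not members. They may thus be a selected subset of all CpGs, which was not checked.

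Members were selected on CPM from raw totals (26752341 to 31894020 counts per library). A gene model entered the test when more than 3 libraries exceeded 0.18 CPM. After TMM scaling, groups were compared in R 4.3.3 with edgeR 4.0.16 (quasi-likelihood, Benjamini-Hochberg adjusted p under 0.01). The log2 fold change is no care over care. Its SE is the absolute log2 fold change divided by the square root of the quasi-likelihood F statistic. Chi-square comparisons of counts found more than sampling noise between all libraries, so each counted as 1 replicate. The scripts were tested on simulated data. Alternatives were the exact test, DESeq2 1.42.0, other scalings, filters and limits, a block on the replicate number, and leaving out each library. Some were chosen after seeing the data.

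The members and lists were chosen with earlier results of these data known. Gene models named are the 10 members with the most CPM in care, the 6 most separated, those annotated by a complete list with at least 2 members or placed on a scaffold, those at the limits, the 2 with the widest care spread and those in runs. Other members were named after their values were seen. Annotation, orthologs and positions come from the study's supplementary gene tables, of which positions cover 823 gene models. Reads methylated are percent times coverage. Sequences of the gene models were not used here. Tables and figures were made in Python 3.11.15 (matplotlib 3.10.9, pandas 2.3.3, scipy 1.17.1, numpy 2.4.6).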

Additional observations from a re-analysis of the deposited data

How the results depend on the processing

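The number of members was 66 under TMM or DESeq2 scaling, 149 with a limit of 2 times and 27 with a limit of 5 times, and 72 to 91 with 1 library left out, which keeps all 67 since the rule is then looser. Leaving out 1 library gave 26 to 83 gene models with the opposite pattern. The 755 gene models called became 1420 with the exact test, 1450 with the exact test and the filter in at least 3 libraries (chosen after seeing the data), 1630 with DESeq2 and 172 to 1109 with 1 library left out, the fewest without care replicate 3. There were 275 calls without care replicate 1, 327 when no care replicate 2 was dropped and 350 when no care replicate 1 was. The members called lower in no care numbered 55 to 66 over other tests, scalings and filters and 42 to 51 with 1 library left out. No member's log2 fold change changed sign in any of these, an outcome that the rule for choosing members builds in. Same-numbered libraries did not deviate together more than others (correlations of -0.00, -0.05 and 0.10, beside -0.09 to 0.13 for unlike numbers). No sign of pairing was seen, though 3 libraries per group cannot exclude it. With the replicate number as a block 371 gene models and 45 members were called. The methylation difference of Ccalc.v2_000500 was -1.04 to 3.57 percentage points with 1 library left out. The cause of these shifts was not tested. With 3 pools per group, members with a few reads in no care, such as Ccalc.v2_005701, are limited by depth, and the members' own selection on these libraries means that their separation has no replicate outside them.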
